A study of Mus musculus with 6 samples.

Results

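Genes for the dynein arms of motile cilia and for the factors that assemble them were followed in RNA of sorted subventricular zone cells from adult mice. This zone lines the lateral ventricles of the brain and holds neural stem cells. The set held 35 of the 55487 gene rows of the expression table and was chosen by gene name: every axonemal dynein heavy chain row (Dnah), 3 light chain genes (Dnal1, Dnal4 and Dnali1), the Dnaaf assembly factors and 11 further docking, ruler and assembly genes. The names also caught Dnah2os, an antisense transcript. The family was proposed with results of the same comparison known. Its counts, fold changes and adjusted p-values are therefore descriptions of these libraries.

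Knockout samples carried E2F1(-/-);E2F3(F/F), and heterozygous samples carried E2F1(+/-);E2F3(F/+), with 3 libraries of each genotype labelled A, B and C. All mice had the NestinCreERT2/R26;EYFP alleles on a C57BL/6;Sv/129;FVB/N background. They were 6 to 10 weeks old when they received tamoxifen by gavage (200 mg/kg per day for 5 days), and the zone was dissected 10 days later. Animals were pooled to give at least 200000 YFP-positive cells per sample. The sort therefore took cells in which Cre under the Nestin promoter had switched on the reporter, with their descendants. The minus allele of E2F1 is carried by every cell of the animal, whereas the F (floxed) allele of E2F3 is cut where Cre is active. The loss of the 2 genes cannot be told apart, and the heterozygous mice were themselves carriers of 1 minus and 1 floxed allele. The samples are called biological replicates in the design text, and each is a pool of mice, so p-values measure the spread between pools.

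Motile cilia beat because rows of dynein motors, the outer and inner arms, slide the microtubule doublets of the axoneme against each other. Each arm is built on heavy chains, which are the ATP-driven motors, with intermediate and light chains at their base. The arms are put together in the cytoplasm by chaperone-like assembly factors, carried into the cilium and fixed to the doublets by docking proteins, at a spacing set by ruler proteins. In the wall of the lateral ventricles these cilia belong to ependymal cells, which carry many of them and move cerebrospinal fluid.

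The values are the authors' reads per gene divided by 1 size factor per library, called normalized reads below. Reads recovered from them numbered 19798675, 25982361 and 24857534 in knockout libraries A, B and C, against 23227192, 25416637 and 22832716 in heterozygous A, B and C. Of these, 43402, 37726 and 17919 belonged to the 35 genes in knockout libraries A, B and C, against 14545, 13306 and 12516 in heterozygous A, B and C. E2f1 had 375, 483 and 516 normalized reads in knockout libraries A, B and C, against 1152, 1388 and 1030 (heterozygous A, B and C), lower in all knockout libraries but with reads remaining. E2f3 did not separate the genotypes (log2 difference 0.09 ± 0.28 SE, limma adjusted p = 0.845), and counts over the whole gene do not check the removal of part of either gene. The labelled tissue was reflected in the stem cell and astrocyte markers, whose summed level was 182777 to 348308 normalized reads in knockout and 136022 to 226678 in heterozygous libraries.

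Across the family, most motor, docking and ruler genes were higher in knockout cells, and the size of the difference depended on the library. Of the 35 genes, 32 had a mean of at least 10 normalized reads and were tested with limma on log2(normalized reads + 1). Dnaaf4, which counts among the 32, reached this mean only through knockout A and B (34.0 and 30.3 normalized reads). At adjusted p under 0.05, 20 of the 32 rose and 0 fell, and 12 did not pass. At an unadjusted p under 0.05, 25 were higher and 2 (Dnaaf2 and Pih1d1) lower in knockout. Over all 18227 genes tested, 15.8% passed in either direction, 7.23% higher and 8.59% lower in knockout. The 32 genes had a median log2 difference of 1.51 (29 positive, 3 negative), beside a median of 0.05 over all genes tested. With edgeR's quasi-likelihood test on the recovered reads, 22 of 32 rose and 0 fell, beside 7.78% higher and 8.25% lower of 18218 genes. With DESeq2, 25 of 34 rose and 1 fell, beside 11.4% higher and 10.5% lower of 20425 genes. The lists and the contrast were chosen with these values known, so nothing is read from the shares.

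**Figure D1:**
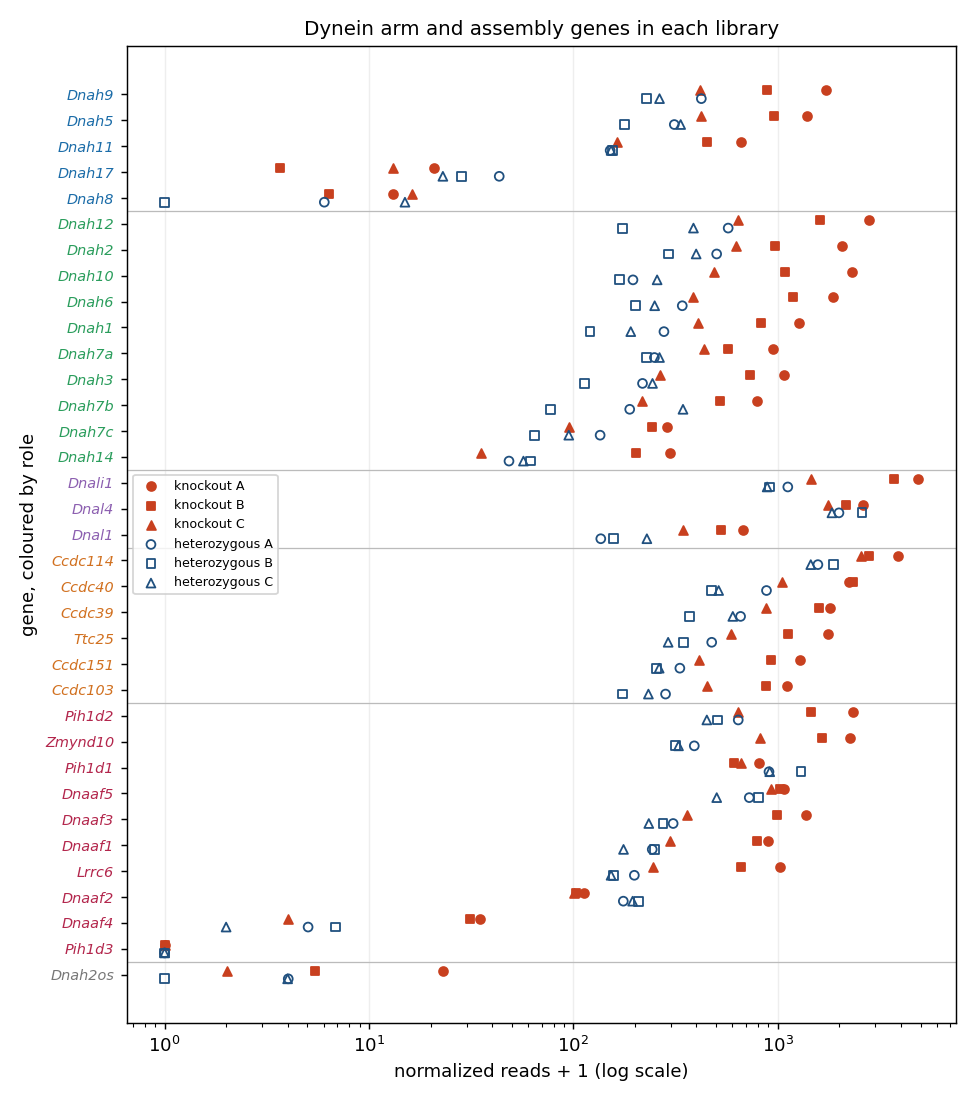
Normalized reads plus 1 on a log axis for the 35 genes, 1 row per gene and 1 point per library (filled, knockout; open, heterozygous; circle, square and triangle for A, B and C). In most rows knockout A is the rightmost point, and knockout C lies nearest to the heterozygous points.

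In normalized reads, the knockout libraries differed among themselves more than the heterozygous ones. Relative to the heterozygous mean, the 20 genes that rose stood at 2.38 to 11.2 times (median 5.04) in knockout A, at 1.70 to 5.25 times (median 3.70) in knockout B and at 1.32 to 2.37 times (median 1.58) in knockout C. The 12 tested genes that were not called stood at 0.583 to 9.35 times (median 3.43) in knockout A, at 0.0873 to 8.32 times (median 2.53) in knockout B and at 0.397 to 1.37 times (median 0.901) in knockout C. Among the 12, Dnaaf4 was the highest in knockout A and B, over a heterozygous mean of 3.64 normalized reads. Dnah17 was the lowest in knockout B and C, at 2.67 and 12.1 normalized reads. Both rest on few reads. Each of the 20 had a larger SD in knockout than in heterozygous libraries, in normalized reads, where the SD grows with the mean. Relative to the mean, the SD was similar for Ccdc40 (1873 ± 716 in knockout, 622 ± 224 in heterozygous libraries). It was larger in knockout for Dnali1 (3343 ± 1724 against 971 ± 129). The order A, B, C from high to low was seen in 29 of the 32 tested genes, beside 25.8% of all tested genes. All 3 knockout libraries lay on 1 side of all 3 heterozygous libraries for 25 of the 32, beside 38.7% of all tested genes, of which 18.5% had knockout above. Knockout A, B and C lay above every heterozygous library in 29, 28 and 22 of the 32 genes, beside 37.7%, 36% and 33.3% of all tested genes.

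Single libraries decided many of the calls. With limma, 10 of the tested genes rose without knockout A, 1 (Zmynd10) without knockout B and 27 without knockout C. Without heterozygous A 4 rose, and without heterozygous C 8 rose. Without heterozygous B 0 rose, with 24 at an unadjusted limma p under 0.05 in either direction. With edgeR, leaving out that library also gave 0 calls, with 26 at an unadjusted p under 0.05 in either direction. The log2 differences of the 20 genes stayed between 0.71 and 2.95 in these 6 fits, and none of the 20 was called in all 6. Of all genes tested with limma, 5.41%, 0.599% and 10.7% rose without knockout A, B and C, and 1.78%, 0.904% and 5.24% without heterozygous A, B and C. With edgeR without heterozygous B, 3.22% were called in either direction.

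**Figure D2:**
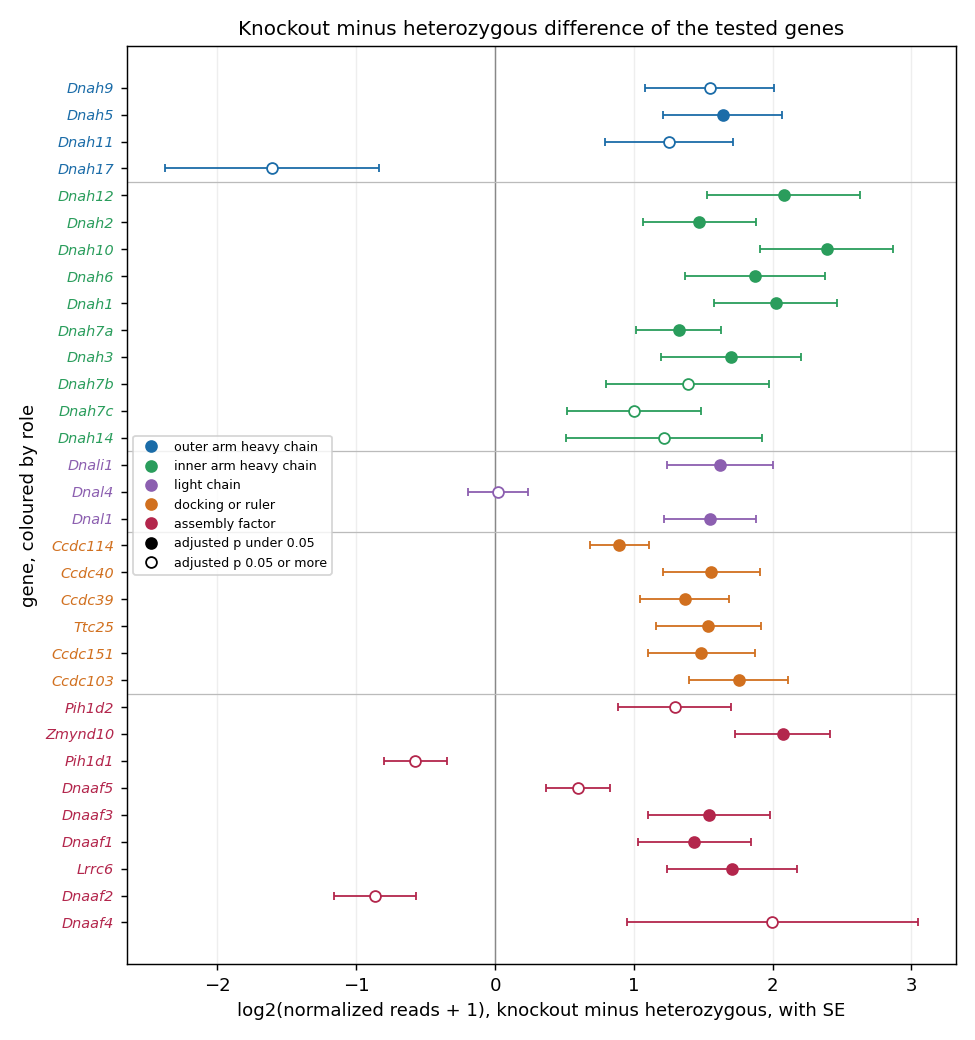
Difference of mean log2(normalized reads + 1), knockout minus heterozygous, with its standard error for the 32 tested genes (3 libraries per genotype), grouped and coloured by role. The filled points, 20 genes with adjusted p under 0.05, lie between 0.89 and 2.39, and the 3 points left of 0 are Dnah17, Pih1d1 and Dnaaf2.

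Promoter sequence was available from RefSeq (GRCm38.p6, 250 bases before to 50 after the annotated start) for 29 of the 35 genes. The windows were searched on both strands for sites of 3 factor families: the RFX and forkhead families, to which the ciliogenesis regulators Rfx2, Rfx3 and Foxj1 belong, and E2F. The RFX X-box was spelled GTNNCC and GGNAAC with 2 bases between them (N is any base). It was present in 4 of the 29 genes (Zmynd10, Ccdc151, Pih1d2 and Dnaaf5) and in 1.29% of the 32851 windows in the table. Here and below, the 29 are counted as genes, whereas the shares over all are per window. Parts of the windows of these 4 genes are printed below, as 60 bases each, because they held the longest of the motifs searched. The X-box is in capitals. In Zmynd10, Pih1d2 and Dnaaf5 the printed letters are its reverse complement, since the match is on the other strand.
Zmynd10, chr9:107547258-107547317, plus strand: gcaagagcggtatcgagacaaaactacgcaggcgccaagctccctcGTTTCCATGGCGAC
Ccdc151, chr9:22002635-22002694, minus strand: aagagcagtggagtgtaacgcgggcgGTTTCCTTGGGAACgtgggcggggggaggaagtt
Pih1d2, chr9:50617071-50617130, plus strand: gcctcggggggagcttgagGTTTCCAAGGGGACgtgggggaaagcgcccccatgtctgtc
Dnaaf5, chr5:139150175-139150234, plus strand: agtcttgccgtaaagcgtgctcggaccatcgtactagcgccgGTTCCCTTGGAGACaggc

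The first base of the capitals lies at base 1 from the start in Zmynd10, at -34 in Ccdc151, at -231 in Pih1d2 and at -18 in Dnaaf5. Zmynd10 and Ccdc151 rose, whereas Pih1d2 and Dnaaf5 did not pass the test (values below). The shorter RFX word GTTGCC was in 9 of the 29 genes and in 12.5% of all windows. This short word never overlapped an X-box in these windows. The forkhead site TGTTTAC was in 1 of the 29 (Dnah17) and in 3.65% of all windows. The E2F words TTTCCCGC, TTTGGCGC, TTTCGCGC and TTTGCCGC, which overlap in part, were found in 1 of the 29 (Dnah11, by TTTGCCGC) and in 2.26% of all windows. Other spellings moved these shares. For example, an X-box with GTTNCC as its first part was in 1 of the 29 windows (Ccdc151), and the E2F words TTCCCGCC, TTGGCGCC and TTCGCGCC were in 1 (Zmynd10). A match is a description of letters, and binding was not measured.

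The outer arm heavy chains are the motors that set beat frequency. Dnah5 rose, and Dnah9 and Dnah11 were higher in knockout by similar amounts without passing the test. Dnah5 (chromosome 15, 28203752 to 28472052, plus strand, GRCm38) encodes the heavy chain found along the whole cilium. It had 1393, 955 and 422 normalized reads in knockout libraries A, B and C, against 311, 177 and 334 in heterozygous A, B and C. All 3 knockout libraries were above all heterozygous ones, with knockout C nearest. The log2 difference was 1.64 ± 0.43 (SE, limma adjusted p = 0.0334).

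Dnah9 (chromosome 11, 65831282 to 66168551, minus strand), in human airway cilia the partner of Dnah5 in the distal part, had 1721, 882 and 417 normalized reads in knockout libraries A, B and C, against 422, 227 and 263 in heterozygous A, B and C. The groups overlapped, since knockout C lay just below heterozygous A. The log2 difference was 1.55 ± 0.47 (limma adjusted p = 0.0512), and edgeR gave an adjusted p of 0.0388. Dnah11, in human airway cilia the proximal partner, had 660.3, 448 and 163 normalized reads in knockout libraries A, B and C, against 150.3, 155 and 152 in heterozygous A, B and C. The groups did not overlap, but knockout C exceeded the highest heterozygous library by few reads (log2 difference 1.25 ± 0.46, limma adjusted p = 0.0917).

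The heavy chains of the sperm outer arm were near background. Dnah17 had 19.7, 2.67 and 12.1 normalized reads in knockout libraries A, B and C, against 42.4, 27.4 and 22.0 in heterozygous A, B and C, the opposite direction to the other outer arm chains (log2 difference -1.61 ± 0.77, limma adjusted p = 0.177). Dnah8 had 12.1, 5.34 and 15.2 normalized reads in knockout libraries A, B and C, against 5.04, 0 and 13.99 in heterozygous A, B and C. Its mean lay under the filter for limma, its groups overlapped, and edgeR gave an adjusted p of 0.652. The 7 male germ cell markers together had 11.99 to 23.2 normalized reads per library. Of the 4 outer arm chains tested with limma, Dnah5 alone passed with all libraries. DESeq2 gave adjusted p-values of 0.000932 for Dnah9 and 0.00600 for Dnah11, and limma without knockout C gave 0.00190 and 0.00202. Dnah5 was called without knockout C (adjusted p = 0.00109) and heterozygous C (0.0481), and missed the threshold without knockout A (0.0695), knockout B (0.118), heterozygous A (0.0828) and heterozygous B (0.142).

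Inner arm heavy chains shape the bend of the beating cilium. Of the 10, 7 rose (Dnah1, Dnah2, Dnah3, Dnah6, Dnah7a, Dnah10 and Dnah12), and Dnah7b, Dnah7c and Dnah14 did not pass. The median log2 difference of the 10 was 1.59. Dnah10 (chromosome 5, 124725085 to 124834308, plus strand) and Dnah2 (chromosome 11, 69420809 to 69549110, minus strand) encode the heavy chains of the double-headed inner arm. Dnah10 had 2295, 1080.1 and 487 normalized reads in knockout libraries A, B and C, against 195, 167 and 256 in heterozygous A, B and C. Its groups were well separated, and its log2 difference of 2.39 ± 0.48 was the largest of the family (limma adjusted p = 0.0141). Dnah2 had 2068, 965 and 620.3 normalized reads in knockout libraries A, B and C, against 501, 290.0 and 398 in heterozygous A, B and C. The groups did not overlap, and the log2 difference was 1.47 ± 0.41 (limma adjusted p = 0.0396), smaller than that of Dnah10, although the difference between them was not tested.

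Dnah12 and Dnah6 encode single-headed inner arm motors. Dnah12 (chromosome 14, 26693274 to 26891703, plus strand) had 2807, 1617 and 638 normalized reads in knockout libraries A, B and C, against 571, 172 and 386 in heterozygous A, B and C. Knockout C was close to heterozygous A, without overlap (log2 difference 2.08 ± 0.55, limma adjusted p = 0.0351). Dnah6 (chromosome 6, 73017606 to 73221651, minus strand) had 1854, 1188 and 383 normalized reads in knockout libraries A, B and C, against 340.0, 200 and 249 in heterozygous A, B and C. Again the groups were separate, with knockout C nearest (log2 difference 1.88 ± 0.50, limma adjusted p = 0.0362).

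Dnah1 and Dnah3, also single-headed motors, rose with log2 differences of 2.02 ± 0.44 (limma adjusted p = 0.0186) and 1.70 ± 0.50 (0.0486). Dnah3 was the called gene nearest to the threshold, and Dnah9, at 0.0512, was the nearest outside it. Dnah3 lost its call with upper-quartile rescaling (adjusted p = 0.0519), with a pseudocount of 0.5 (0.0504) and with no filter on low values (0.0548). Dnah14, a heavy chain placed with the inner arms, had a log2 difference of 1.22 ± 0.71 (limma adjusted p = 0.254). Its knockout C value of 34.4 normalized reads lay below all heterozygous libraries (47.4 to 60.8), whereas knockout A and B had 297 and 201. DESeq2 gave Dnah14 an adjusted p of 0.0274, and limma without knockout C gave 0.00401. Of the 7 inner arm genes that rose, 3, 0 and 7 were called without knockout A, B and C, and 1, 0 and 3 without heterozygous A, B and C, with adjusted p-values up to 0.186.

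The mouse genome has 3 close copies of the inner arm gene Dnah7 on chromosome 1, and reads cannot always be assigned to 1 of them. Their coding sequences shared an identical run of 217 bases, part of which is printed here because it shows where short reads fit all 3 copies equally. The 60 bases lie in an exon of Dnah7a (chr1:53534538-53534597, minus strand), of Dnah7b (chr1:46214298-46214357, plus strand) and of Dnah7c (chr1:46639527-46639586, plus strand), GRCm38 with GENCODE M21 exons:
Dnah7a, Dnah7b and Dnah7c, shared coding bases: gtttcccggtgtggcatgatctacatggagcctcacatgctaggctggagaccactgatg

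Of the 50-base windows of their exons, 38.6% in Dnah7a, 30% in Dnah7b and 46.8% in Dnah7c also occurred in another gene. The RefSeq windows of Dnah7a and Dnah7b were identical at 67.4% of aligned positions, those of Dnah7a and Dnah7c at 79.6%, and those of Dnah7b and Dnah7c at 60.1%. All 3 held the short RFX word GTTGCC, in capitals in these 60-base stretches, which are set side by side to show how far the copies resemble each other.
Dnah7a, chr1:53706952-53707011, minus strand: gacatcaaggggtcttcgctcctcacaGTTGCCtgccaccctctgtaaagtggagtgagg
Dnah7b, chr1:46066663-46066722, plus strand: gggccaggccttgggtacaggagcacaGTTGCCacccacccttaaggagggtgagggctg
Dnah7c, chr1:46425272-46425331, plus strand: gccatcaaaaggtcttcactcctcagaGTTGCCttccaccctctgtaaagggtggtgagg

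The 3 copies were all higher on average in knockout, but with limma on all libraries only Dnah7a passed. Dnah7a had 947, 568 and 435 normalized reads in knockout libraries A, B and C, against 248, 227 and 263 in heterozygous A, B and C, with separate groups (log2 difference 1.32 ± 0.31, limma adjusted p = 0.0222). Dnah7b had 789.8, 522 and 217 normalized reads in knockout libraries A, B and C, against 188, 76.4 and 343 in heterozygous A, B and C. Its groups overlapped, with heterozygous C above knockout C (log2 difference 1.39 ± 0.59, limma adjusted p = 0.133). Dnah7c had 287, 241 and 94.1 normalized reads in knockout libraries A, B and C, against 134, 63.7 and 94.0 in heterozygous A, B and C, also with overlap (log2 difference 1.0002 ± 0.48, limma adjusted p = 0.178). DESeq2 gave Dnah7b an adjusted p of 0.0446, and limma without knockout C gave Dnah7b 0.0216 and Dnah7c 0.0241. Whether the copies differ from each other was not tested, and their values are uncertain because of the shared sequence.

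Dnah2os, the antisense transcript, overlaps 312 exon bases of Dnah2 on the opposite strand. It had 21.9, 4.45 and 1.01 normalized reads in knockout libraries A, B and C, against 3.03, 0 and 2.999 in heterozygous A, B and C, with overlapping groups and a mean under the filter for limma. The library kit does not mark strand, so reads from the shared bases cannot be told apart from those of Dnah2.

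Heavy chain genes can be compared with each other only per length. Per kb of exon, Dnah12 was the highest in both genotypes, with 140.5 normalized reads per kb in knockout and 31.3 in heterozygous libraries. Dnah6, Dnah2 and Dnah10 followed in knockout libraries at 86.2, 81.4 and 80.0 normalized reads per kb, against 19.8, 26.5 and 12.8 in heterozygous libraries. The knockout SD of each of these was over 50 normalized reads per kb, so their order in knockout was within the spread. Dnah10 was 4th of the 15 heavy chains in knockout and 9th in heterozygous libraries. Dnah17 and Dnah8 were the lowest, at 0.714 and 0.405 normalized reads per kb in knockout, against 1.90 and 0.237 in heterozygous libraries.

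**Figure D3:**
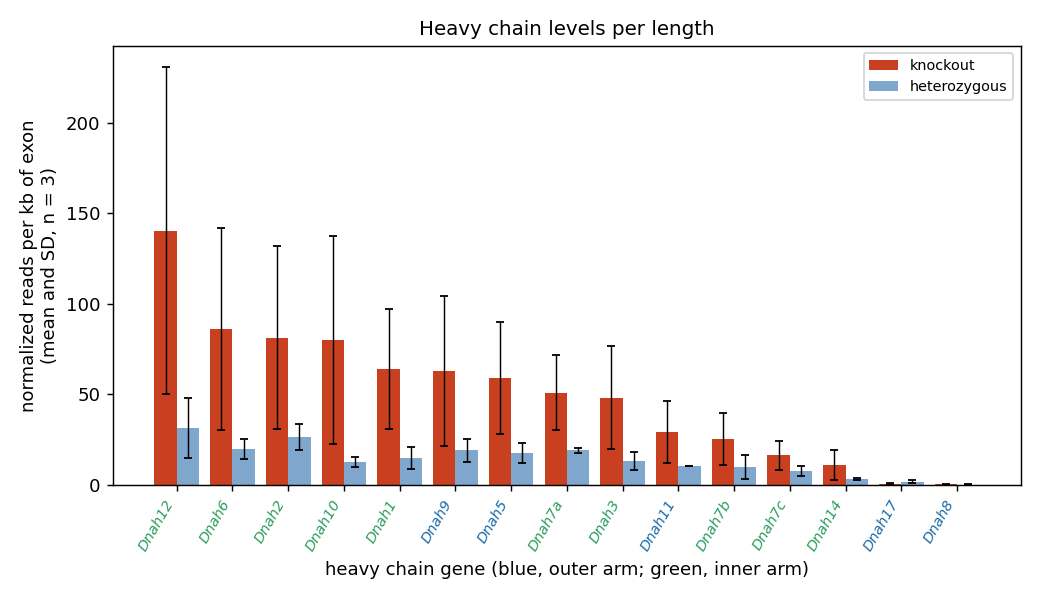
Normalized reads per kb of exon for the 15 heavy chain genes, with bars for the mean and lines for the SD of 3 libraries (knockout left, heterozygous right of each pair; lines are cut at 0). Dnah12 is highest in both genotypes, and Dnah17 and Dnah8 are near 0.

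Of the 3 light chain genes, Dnali1 and Dnal1 rose, and Dnal4 did not separate the genotypes. Dnali1 (chromosome 4, 125055338 to 125065703, minus strand), a light chain of inner arms, had 4845, 3724 and 1460.2 normalized reads in knockout libraries A, B and C, against 1119, 907 and 887 in heterozygous A, B and C. The groups did not overlap (log2 difference 1.62 ± 0.38, limma adjusted p = 0.0239). Dnal1 (chromosome 12, 84114366 to 84147498, plus strand), a light chain that binds the motor domain of an outer arm heavy chain, had 675, 526 and 344 normalized reads in knockout libraries A, B and C, against 135, 156 and 228 in heterozygous A, B and C. Its groups were separate and its knockout libraries closer to each other than those of the heavy chains (log2 difference 1.55 ± 0.33, limma adjusted p = 0.0169).

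Dnal4, named as an axonemal light chain, had 2614, 2155 and 1759 normalized reads in knockout libraries A, B and C, against 1991, 2581 and 1840.1 in heterozygous A, B and C. The groups overlapped fully, with a log2 difference of 0.02 ± 0.22 (limma adjusted p = 0.953). It changed sign when a library was left out, to -0.12 without knockout A, -0.02 without heterozygous A and -0.08 without heterozygous C. Dnali1 and Dnal1 were both called without knockout A and without knockout C, Dnal1 alone without heterozygous C, and neither without knockout B, heterozygous A or heterozygous B (adjusted p-values up to 0.111).

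The search by name found no intermediate chain gene, because the table lists them under older symbols. They were added after values had been seen: Dnaic1 and Dnaic2 of the outer arm (Dnai1 and Dnai2 in RefSeq), and Wdr63 and Wdr78 of the inner arm. All 4 rose, with log2 differences of 1.36 to 1.79. Dnaic1 had 3976, 3375 and 1956 normalized reads in knockout libraries A, B and C, against 1301, 940 and 811 in heterozygous A, B and C, with separate groups (log2 difference 1.57 ± 0.29, limma adjusted p = 0.0100). Wdr78 was higher in knockout B (2336) than in knockout A (2212) or C (1278), against 735, 496 and 604 in heterozygous A, B and C, and its groups were also separate (log2 difference 1.63 ± 0.27, limma adjusted p = 0.00648).

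All 6 docking and ruler genes rose, with a median log2 difference of 1.51. Ccdc114 (chromosome 7, 45924072 to 45948963, plus strand), a subunit of the outer arm docking complex, had 3881, 2783 and 2547 normalized reads in knockout libraries A, B and C, against 1571, 1880.3 and 1449 in heterozygous A, B and C. The groups were separate, and the log2 difference of 0.89 ± 0.21 was the smallest among the 20 called genes (limma adjusted p = 0.0242). Its partner Ttc25 had 1751, 1124 and 589 normalized reads in knockout libraries A, B and C, against 474, 344 and 289.9 in heterozygous A, B and C. These groups were separate too (log2 difference 1.54 ± 0.38, limma adjusted p = 0.0269). Ccdc151, also of the docking complex, and Ccdc103, which helps to attach the arms, had log2 differences of 1.49 ± 0.38 (limma adjusted p = 0.0321) and 1.76 ± 0.35 (0.0143).

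Ccdc39 and Ccdc40 encode the coiled-coil pair that acts as a ruler along the doublet and anchors inner arms. Ccdc40 (chromosome 11, 119228572 to 119265238, plus strand) had 2227, 2344 and 1049 normalized reads in knockout libraries A, B and C, against 879.7, 474 and 513 in heterozygous A, B and C. Here knockout B was the highest library, and the groups did not overlap (log2 difference 1.56 ± 0.35, limma adjusted p = 0.0203). Ccdc39 (chromosome 3, 33812362 to 33844310, minus strand) had 1799, 1595 and 877 normalized reads in knockout libraries A, B and C, against 657, 370.4 and 602 in heterozygous A, B and C, again with separate groups (log2 difference 1.37 ± 0.32, limma adjusted p = 0.0235). Of its exon bases, 16.9% are also exons of Ttc14 on the other strand. Of the 6 docking and ruler genes, 4, 0 and 6 were called without knockout A, B and C, and 2, 0 and 2 without heterozygous A, B and C, with adjusted p-values up to 0.128.

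The assembly factors did not move as 1 group. Of the 9 tested, 4 rose (Zmynd10, Lrrc6, Dnaaf1 and Dnaaf3) and 5 did not pass, and 2 of these 5 had negative log2 differences. Zmynd10 (chromosome 9, 107547298 to 107551319, plus strand), which works with Lrrc6 in the maturation of heavy chains, had 2254, 1642 and 814 normalized reads in knockout libraries A, B and C, against 389, 316 and 326 in heterozygous A, B and C. The lowest knockout library was far above the highest heterozygous one. Its log2 difference was 2.07 ± 0.34, with the smallest adjusted p of the family (limma adjusted p = 0.00640). Lrrc6, Dnaaf3 and Dnaaf1, all needed for arm preassembly, had log2 differences of 1.71 ± 0.47 (limma adjusted p = 0.0377), 1.54 ± 0.44 (0.0429) and 1.44 ± 0.41 (0.0421). For Dnaaf1, 20.7% of exon bases are shared with Taf1c on the other strand.

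Pih1d2 (chromosome 9, 50617321 to 50625000, plus strand), which has the PIH domain of dynein assembly co-chaperones, had 2325, 1454 and 636 normalized reads in knockout libraries A, B and C, against 639.6, 508 and 449 in heterozygous A, B and C. Knockout C lay just below heterozygous A, so the groups overlapped (log2 difference 1.29 ± 0.41, limma adjusted p = 0.0591), and edgeR and DESeq2 gave adjusted p-values of 0.0391 and 0.00184. Limma without knockout C gave Pih1d2 0.000960. Dnaaf5, a HEAT-repeat assembly factor, had 1068, 1025 and 929 normalized reads in knockout libraries A, B and C, against 724, 807 and 502 in heterozygous A, B and C. Its groups were separate and its knockout libraries close together, but the log2 difference of 0.60 ± 0.23 did not pass (limma adjusted p = 0.103).

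Pih1d1 and Dnaaf2 lay the other way. Pih1d1, a subunit of the R2TP co-chaperone complex, which also serves other protein complexes in many cell types, had 809.5, 607 and 659 normalized reads in knockout libraries A, B and C, against 905, 1298 and 913 in heterozygous A, B and C. All knockout libraries were below all heterozygous ones (log2 difference -0.58 ± 0.23, limma adjusted p = 0.110). Dnaaf2, a PIH-domain assembly factor, had 112, 102 and 100.2 normalized reads in knockout libraries A, B and C, against 175, 208 and 194 in heterozygous A, B and C. Its groups were separate and tight (log2 difference -0.87 ± 0.30, limma adjusted p = 0.0747), and DESeq2 gave an adjusted p of 0.0388. The exons of Dnaaf2 overlap those of other genes over 71.4% of their bases, so its value is uncertain.

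Dnaaf4, known as Dyx1c1 in the annotation, had 34.0, 30.3 and 3.04 normalized reads in knockout libraries A, B and C, against 4.04, 5.88 and 0.9995 in heterozygous A, B and C. The groups overlapped (log2 difference 2.00 ± 1.05, limma adjusted p = 0.211, or 0.0471 without knockout C). Other genes overlap 96.6% of its exon bases, among them Gm44503 on the same strand, which shares 56.8% of its 50-base windows, and its value is uncertain. Pih1d3, another PIH-domain factor, had 0 reads in all 6 libraries, which allows up to 3 reads per library by counting error alone. This row is a gene of 1 exon on chromosome 1. It shares 1.21% of its 50-base windows with Pih1h3b, which the gene names did not select. The 0 holds for this row alone. Of the 4 assembly factors that rose, 1, 1 and 4 were called without knockout A, B and C, and 1, 0 and 1 without heterozygous A, B and C, with adjusted p-values up to 0.158.

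Some other marker lists moved with these genes. The ependymal marker list, which contains none of the 35 genes, rose in 8 of 12 members and fell in 0, with a median log2 difference of 1.61. Beside this and the list counts below, 7.23% of all genes tested with limma rose and 8.59% fell. Its summed level was 91981, 57134 and 21839 normalized reads in knockout libraries A, B and C, against 17062, 15337 and 15239 in heterozygous A, B and C. The libraries thus had the same order as the dynein genes. In bulk RNA, fewer or more cells of a type and less or more RNA per cell cannot be told apart. Endothelial markers had the same order in knockout, with summed levels of 37631, 14484 and 5560.4 normalized reads in knockout libraries A, B and C, against 7256, 9020 and 6256 in heterozygous A, B and C, and 0 of 10 passed with limma or edgeR (2 were higher at an unadjusted limma p under 0.05). Red blood cell markers also had this order, with 21655, 5377 and 681 normalized reads in knockout libraries A, B and C, against 1445, 3238 and 4343 in heterozygous A, B and C, and 0 of 5 passed with limma or edgeR (0 at an unadjusted limma p under 0.05). The 6 mural markers had 32756, 26963 and 12132 normalized reads in knockout libraries A, B and C, against 8616, 10376 and 17688 in heterozygous A, B and C, with 1 of 6 called higher and the same order in 5 of 6. The sum of the 10 stem cell and astrocyte markers ran in the opposite order, with 182777, 320471 and 348308 normalized reads in knockout libraries A, B and C, against 181812, 136022 and 226678 in heterozygous A, B and C. Single markers of this list differed in order, and 2 of 10 (Nes and S100b) had that of the dynein genes. Of the 10, 2 rose. The 10 microglia markers summed to 15145, 4205 and 4419 normalized reads in knockout libraries A, B and C. In heterozygous A, B and C they summed to 2833, 4523 and 10626. Of these microglia markers, 8 had the order of the dynein genes, and 0 passed with limma or edgeR (0 at an unadjusted limma p under 0.05). The 8 oligodendrocyte lineage markers summed to 88771, 71660 and 87342 normalized reads in knockout libraries A, B and C. In heterozygous A, B and C they summed to 45471, 66546 and 61364, below every knockout library. Of these 8, 1 had the order of the dynein genes, and 0 passed with limma or edgeR (3 were higher at an unadjusted limma p under 0.05). The part of these lists in the dynein differences was not tested. In knockout C the endothelial sum was below the heterozygous mean and the ependymal sum above it. Single markers went the other way, the endothelial Cldn5 and Kdr at 1.03 and 1.08 times the heterozygous mean, and the ependymal Calml4 and Mia at 0.943 and 0.437 times.

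All 8 neuroblast markers fell, with summed levels of 8168, 9048 and 12895 normalized reads in knockout libraries A, B and C, against 87517, 100486 and 62105 in heterozygous A, B and C. Choroid plexus, another ciliated epithelium, stood out in heterozygous A, where its 9 markers summed to 48762 normalized reads. In heterozygous B and C they summed to 774 and 796. In knockout libraries A, B and C the sums were 3656, 2350 and 1253, the order of the dynein genes and above heterozygous B and C. Of the 9 single markers, 3 had this order, and 0 passed with limma or edgeR (1 was higher at an unadjusted limma p under 0.05). The 35 dynein genes summed to 14674 normalized reads in heterozygous A, near the 13038 and 12510 in heterozygous B and C. Heavy chains alone were highest in heterozygous A, with inner arm sums of 2718, 1489 and 2477 in heterozygous A, B and C. The outer arm sums were 930, 587 and 785. The part of cell makeup in the results above was not tested.

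**Figure D4:**
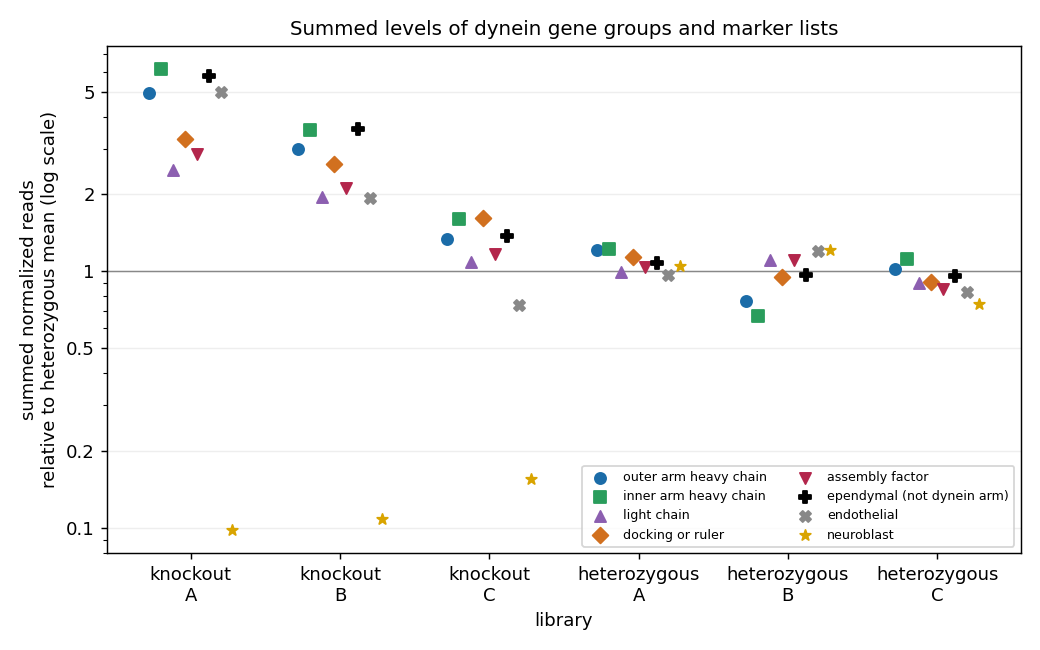
Summed normalized reads of each dynein gene group and of 3 marker lists in each library, divided by the heterozygous mean, on a log axis (1 point per list and library). The inner arm heavy chains stand at 6.14, 3.56 and 1.60 in knockout libraries A, B and C, close to the ependymal markers at 5.79, 3.60 and 1.38, and the neuroblast markers lie at 0.0980 to 0.155.

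Set against the ependymal markers of the same library, the heavy chains kept nearly the same level in both genotypes. Their summed reads were 0.190, 0.179 and 0.211 of the ependymal sum in knockout libraries A, B and C, against 0.214, 0.135 and 0.214 in heterozygous A, B and C. The means of 0.193 ± 0.016 and 0.188 ± 0.045 (knockout and heterozygous, SD, n = 3 each) differed by less than the spread between libraries. The docking and ruler genes stood at 0.131, 0.169 and 0.271 of the ependymal sum in knockout libraries A, B and C, against 0.246, 0.228 and 0.220 in heterozygous A, B and C, with overlap. The assembly factors stood at 0.108, 0.128 and 0.185 in knockout libraries A, B and C, against 0.210, 0.249 and 0.193 in heterozygous A, B and C, where all knockout libraries were lower. All 35 genes together came to 0.645 ± 0.164 of the ependymal sum in knockout and 0.844 ± 0.0203 in heterozygous libraries (SD, n = 3 each), with knockout C (0.830) between the heterozygous values. No test was made of these ratios, and genes that did not rise lower them, because the ependymal sum was higher in every knockout library.

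Outer arm heavy chain reads were 0.278, 0.289 and 0.288 of inner arm heavy chain reads in knockout libraries A, B and C, against 0.342, 0.394 and 0.317 in heterozygous A, B and C. The 3 knockout libraries agreed closely and lay below all heterozygous libraries, although they differed several-fold in the level of both arms. With 3 libraries against 3, an exact two-sided permutation test cannot give a p under 0.1.

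Single genes departed from the shared ratio. Per 1000 ependymal marker reads, Dnah10 had 24.9, 18.9 and 22.3 reads in knockout libraries A, B and C, against 11.4, 10.9 and 16.8 in heterozygous A, B and C, and its groups stayed separate (1.69 times in the means). Zmynd10 had 24.5, 28.7 and 37.3 in knockout libraries A, B and C, against 22.8, 20.6 and 21.4 in heterozygous A, B and C, also separate (1.40 times). The groups of Dnah5 overlapped on this scale, with 15.1, 16.7 and 19.3 in knockout libraries A, B and C, against 18.2, 11.6 and 21.9 in heterozygous A, B and C. Pih1d1, Dnal4, Dnaaf2, Dnah17, Dnah11 and Pih1d2 were lower in all knockout libraries on this scale, at 0.251, 0.361, 0.208, 0.143, 0.778 and 0.798 times the heterozygous mean. The divisor was higher in every knockout library, so a gene with nearly unchanged reads, such as Dnal4, comes out lower by construction. Dnah17 also rests on 3 to 42 recovered reads per library. The share of all genes that separate on this scale was not computed. These values are a description, since the ependymal markers themselves came from the same contrast.

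**Figure D5:**
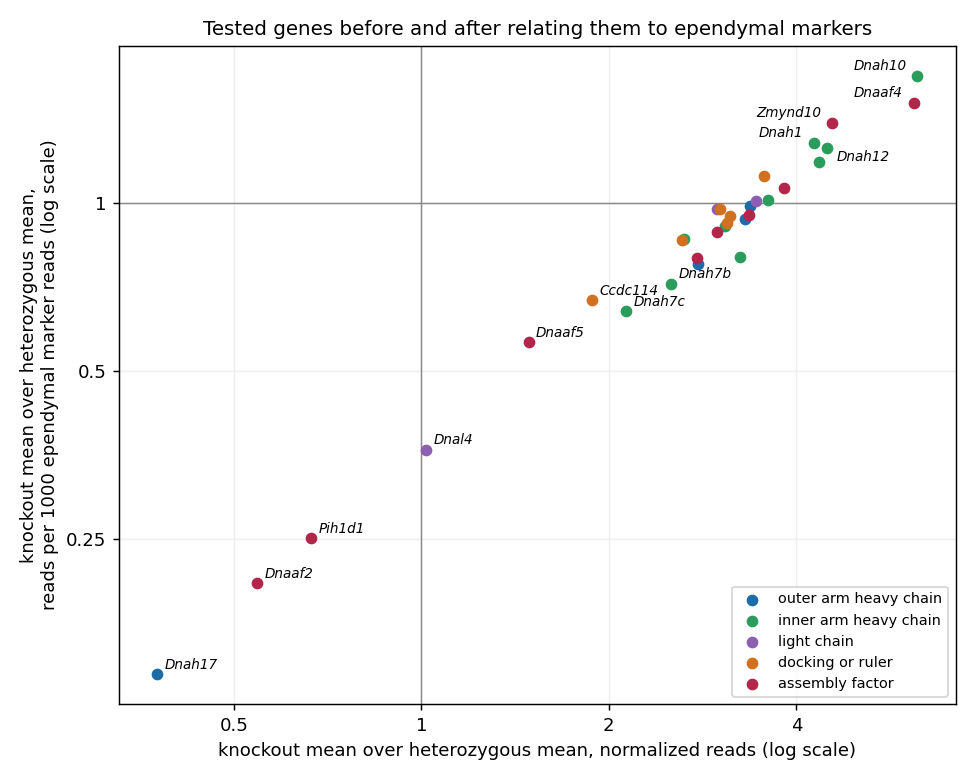
Knockout mean over heterozygous mean of each tested gene on log axes, in normalized reads (horizontal) and per 1000 ependymal marker reads (vertical), 1 point per gene, coloured by role. Most genes that lie near 3 on the horizontal axis lie near 1 on the vertical axis, Dnah10 is highest at 1.69, and Dnal4, Pih1d1, Dnaaf2 and Dnah17 are lowest.

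Most other genes of the axoneme, of intraflagellar transport and of multiciliogenesis moved in the same direction. Among 107 tested genes of docking, nexin-dynein regulatory complex, radial spoke, central pair, tektin, intraflagellar transport and multiciliogenesis lists, 53 rose and 1 fell, with a median log2 difference of 1.35. For this count and the list counts below, the limma shares over all genes tested were 7.23% higher and 8.59% lower. This count of 54 ran between 3 and 76 when a library was left out (25, 4 and 76 without knockout A, B and C, and 21, 3 and 21 without heterozygous A, B and C). Of 22 tested docking, attachment and assembly genes outside the family, 12 rose, including Armc4 of the docking complex (log2 difference 1.93 ± 0.40, limma adjusted p = 0.0159) and the assembly factor Spag1 (1.15 ± 0.21, 0.0102). Spag1 had 1038, 1116 and 1254 normalized reads in knockout libraries A, B and C, against 462.1, 462.5 and 623 in heterozygous A, B and C. It was highest in knockout C, unlike the dynein genes.

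The nexin-dynein regulatory complex, which links neighbouring doublets and controls the inner arms, rose in 6 of 11 tested genes (10 with edgeR), among them Drc1 (log2 difference 1.40 ± 0.26, limma adjusted p = 0.0100) and Tcte1 (2.29 ± 0.47, 0.0145). Radial spoke and central pair genes, whose products pass signals to the arms, rose in 15 of 21, with Rsph10b at a log2 difference of 2.15 ± 0.37 (limma adjusted p = 0.00775). Tektin and microtubule inner protein genes rose in 10 of 17, with Spag8 at 1.42 ± 0.28 (limma adjusted p = 0.0130). Intraflagellar transport genes, which serve the building of cilia of all kinds, rose in 5 of 24, with a median log2 difference of 0.51, and Ift57 had the smallest p of these (0.75 ± 0.17, limma adjusted p = 0.0188). In these 4 lists 0 genes fell with limma or edgeR, and 0 were lower at an unadjusted limma p under 0.05. Foxj1, Ccdc153, Cfap126 and Ak7 stand both in the lists above and among the ependymal markers.

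Among the regulators of the multiciliated state, 5 of 12 tested genes rose: Foxj1, Rfx2, Trp73, Deup1 and Ccdc78. Foxj1, the forkhead factor that switches on motile cilia genes, had 5293, 3769 and 1725 normalized reads in knockout libraries A, B and C, against 842, 693 and 866 in heterozygous A, B and C (log2 difference 2.03 ± 0.36, limma adjusted p = 0.00835). The groups were separate, and the order of the knockout libraries was that of the dynein genes. Rfx2 had 1844, 1782 and 1492 normalized reads in knockout libraries A, B and C, against 819, 532 and 621 in heterozygous A, B and C, a more even rise (1.39 ± 0.22, limma adjusted p = 0.00497). Trp73, an upstream activator of Foxj1, had a log2 difference of 2.19 ± 0.44 (limma adjusted p = 0.0142).

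Rfx3 and Myb, also regulators of ciliated cells, had log2 differences of 0.40 and 0.77 (limma adjusted p = 0.270 and 0.210). Genes of early commitment to many cilia were low: Mcidas had 4.39, 8.01 and 0 normalized reads in knockout libraries A, B and C, against 0 in all heterozygous libraries, and Gmnc had 32.98 to 85.5 over all 6 libraries (log2 difference 0.32 ± 0.50, limma adjusted p = 0.689). The E2F family members with roles in multiciliogenesis, E2f4 and E2f5, had log2 differences of -0.28 and 0.15 (limma adjusted p = 0.374 and 0.577). Their dimer partner Tfdp1 fell, with 1535, 1981 and 2339 normalized reads in knockout libraries A, B and C, against 4184, 5336 and 3412 in heterozygous A, B and C (-1.14 ± 0.23, limma adjusted p = 0.0141).

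Cytoplasmic dynein and dynactin, which move cargo inside cells, did not follow the axonemal genes. Of 23 tested genes, 3 rose and 5 fell, with a median log2 difference of -0.27, beside 7.23% higher and 8.59% lower of all genes tested. The genes that fell were Dync1i1, Dync1li1 and Dynlt1b, with Dync1li2 and Dctn3, which are named after their values were seen, as are the 3 that rose. Dync1i1, the intermediate chain typical of neurons, had 93.2, 88.2 and 136 normalized reads in knockout libraries A, B and C, against 250.2, 450 and 235 in heterozygous A, B and C (log2 difference -1.51 ± 0.36, limma adjusted p = 0.0235). Of the 3 that rose, Dync2li1 and Wdr60 belong to the dynein that returns intraflagellar transport trains from the tip of cilia (log2 differences 0.83 ± 0.20 and 1.08 ± 0.28, limma adjusted p = 0.0269 and 0.0326), and Dynlt3 is a light chain of cytoplasmic dynein (0.70 ± 0.20, 0.0439). The difference between the axonemal and cytoplasmic genes was not tested.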

How the data were processed

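The 6 libraries, 3 of each labelled genotype, were grouped by that label. Alignment and counting used HISAT2 and featureCounts (Subread) on GRCm38, and DESeq2 is also named, per the submitters' processing notes, which give no versions. Whether counting used strand is not given in the sources used here. Each library's deposited value is a normalized signal, reads divided by 1 size factor per library, and the authors' mean over libraries is also a signal. The authors' log2 fold change and its SE, the Wald statistic and weight (scores) and the p-value and adjusted p-value columns were deposited beside them and were not used in the results. All values above 0 were whole multiples of 1 step per library (100% within 0.001 reads), so reads were recovered. The steps of heterozygous A and C were within 1% of 1.

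R 4.3.3 and limma 3.58.1 gave the test, a two-sided trend fit of log2(value + 1) on genotype alone, over 18227 rows with a mean of at least 10, with Benjamini-Hochberg adjustment and a threshold of 0.05. This scale shrinks the fold changes of low genes. Recovered reads were also tested with edgeR 4.0.16 and DESeq2 1.42.0, and methods were tested on simulated data. The other alternatives covered scaling, pseudocount, filter, a block for the replicate letter and leaving out 1 library at a time. Members, lists, tests and the naming rule were chosen with earlier results of these data known. Values in every library are given for the 4 members with the highest mean in each role, up to 8 others, the targeted genes, up to 3 called genes of each other list and the multiciliogenesis list. Dnaic1, Dnaic2, Wdr63 and Wdr78 were added later, and 1 gene that the naming rule allows is not reported here. Gene positions and exon lengths came from GENCODE M21 and promoter sequences from RefSeq. Libraries of 1 genotype differed beyond sampling noise (lowest chi-square over its degrees of freedom 42.2), so each counted once. Intervals and floors cover counting error only. Python 3.11.15 with matplotlib 3.10.9 drew the figures.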

Additional observations from a re-analysis of the deposited data

How the results depend on the processing

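The number of dynein genes called was 20 with limma, 22 with edgeR, 26 with DESeq2 and 19 to 22 under other scalings, pseudocounts, filters and the block. Leaving out 1 library moved it between 0 and 27. The count of other axoneme, intraflagellar transport and multiciliogenesis genes, 54 with all libraries, moved between 3 and 76. Over all genes, 2883 were called with all libraries, and 2230, 697 and 4019 without knockout A, B and C, against 906, 635 and 2336 without heterozygous A, B and C. Among the log2 differences of single members under the other settings, 237 of 253 kept direction and side of the threshold, 3 fell below it, 13 passed it and 0 reversed. Without 1 library, 103 of 190 kept both, 77 fell below the threshold, 7 passed it and 3 reversed, all of Dnal4 (-0.12 without knockout A, -0.02 without heterozygous A, -0.08 without heterozygous C, in a range of -0.12 to 0.17). The cause was not tested. The sum of the 35 genes over ependymal markers, at 0.765 (knockout over heterozygous mean), was 0.798 over radial spoke and central pair genes and ran between 0.655 and 0.840 without 1 library. Upper-quartile rescaling shifted the median log2 difference of all genes from 0.05 to 0.14. Same-lettered libraries did not deviate together over all tested genes (correlations of -0.07, 0.02 and -0.10). With 3 libraries per genotype this does not settle whether the letters pair samples. The 35 genes summed highest in A and lowest in C in heterozygous libraries too (14674, 13038 and 12510 normalized reads in A, B and C). With the letter as a replicate block 22 members and 2310 genes were called. Members under 10 mean reads (Dnah8, Dnah2os and Pih1d3) were left out of the limma test by its filter on low values.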
